A study of Mus musculus with 6 samples.

Results

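The genes examined here encode RNA polymerase I (Pol I) and the factors with which it starts transcription. They are 5 subunits of the enzyme (Polr1a, Polr1b, Polr1c, Polr1d and Polr1e), the initiation factor Rrn3, the architectural factor Ubtf, and 3 subunits of the promoter selectivity factor SL1 (Taf1b, Taf1c and Taf1d). The list was made by gene symbol, with no cut on measured values, but earlier results of these data were known when it was made. All 10 genes were found among the 37991 genes counted, and all 10 passed the filter on low counts that left 16683 genes for testing.

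Pol I transcribes the ribosomal RNA genes (rDNA), which lie in tandem repeats inside the nucleolus, into the precursor of the large ribosomal RNAs. UBTF binds along the active repeats and bends the DNA, SL1, built of the TATA-binding protein and its TAF partners, recognises the promoter, and RRN3 joins the polymerase to this complex. The MYC protein is known to raise rRNA synthesis, and cells that grow and divide rapidly, such as B-cell precursors and lymphoma cells, depend on it. Polyadenylated RNA was sequenced here, so that the values below are messenger RNA levels of the machinery, and rRNA itself was not measured.

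RNA-seq had been carried out on pre-B cells of C57BL/6 mice at 3 stages, sorted from bone marrow by their surface markers, with 2 libraries per stage and 6 in all. Wild-type mice (4 to 6 weeks old) carried no transgene, whereas premalignant mice (4 to 6 weeks) and malignant mice (10 to 20 weeks, taken once a lymphoma had formed) were Eμ-Myc/+ heterozygotes, in which the immunoglobulin heavy-chain enhancer drives Myc in the B lineage. Per the labels the sort took cells with high B220, low IgM and low IgD at every stage. The study's methods describe the malignant gate as B220+ IgM- IgD-, and give females for the wild-type and premalignant collections but both sexes for the malignant one, so that stage, age, gate and sex cannot be told apart in the malignant comparisons. The study's text describes individual animals as its biological replicates, and p-values measure the spread between these libraries only.

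Total counts lay between 30031100 and 53453055 per library, and the replicate 1 library was the deeper one at every stage. Expression is given as CPM, the counts scaled to a common library size with TMM factors, a scaling that takes most genes as unchanged, and, for comparisons between genes, as RPKM, the same value per kilobase of exon. A level of 3 counts was worth 0.0526 to 0.108 CPM, far below all members, and covers counting error only. Myc checked the labels, with 33.8 to 41.4 CPM in wild type and 1155 to 1732 CPM in the Eμ-Myc libraries. Of the B-lineage markers reported here, Cd79a, Cd79b, Pax5 and Ptprc were at 126 CPM or more in all 6 libraries. By the thresholds given below, Cd79a, Cd79b and Pax5 were called lower than wild type in both Eμ-Myc stages, and Ptprc in premalignant cells only. Their log2 fold changes in malignant vs. wild-type cells were -0.72, -0.93, -0.97 and -0.51, in this order. Vpreb1 and Igll1, which encode the surrogate light chain of the pre-B receptor, were at 115 to 197 CPM in wild type, 4.88 to 18.8 CPM in premalignant and 0.146 to 7.56 CPM in malignant libraries. General B-lineage markers were thus present in every library, whereas the surrogate light-chain genes were much lower in both Eμ-Myc stages. Malignant vs. premalignant cells were not called different in Vpreb1 and Igll1 (edgeR adjusted p = 0.389 and 0.424). Malignant replicate 1 had 0.146 and 0.167 CPM of these genes, and malignant replicate 2 had 4.05 and 7.56 CPM. Whether the 3 stages match in B-cell development was not tested.

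Most of the Pol I machinery was higher in both Eμ-Myc stages than in wild-type cells. A gene was called different at a Benjamini-Hochberg false discovery rate (FDR) of at most 0.1 in edgeR's quasi-likelihood test and a log2 fold change of 0.5 or more in either direction. In premalignant vs. wild-type cells 8 of the 10 genes were called higher and 0 lower, beside 19% and 20.3% of all genes tested (39.3% in either direction). In malignant vs. wild-type cells the count was again 8 higher and 0 lower, beside 24.9% and 24.3% of all genes (49.2% in either direction). Both premalignant libraries were above both wild-type ones in 8 members and below them in 0, beside 36.2% and 41.2% of all genes. Both malignant libraries were above both wild-type ones in 9 members, Taf1b added, and below them in 0, beside 35.3% and 36.4% of all genes. The 8 genes were in both comparisons Polr1a, Polr1b, Polr1c, Polr1d, Polr1e, Rrn3, Ubtf and Taf1d, while Taf1b and Taf1c were called in neither. These comparisons share the wild-type libraries, so they are not independent of each other. The members' median log2 fold change was 1.06 in premalignant and 1.24 in malignant cells against wild type, where the medians of all genes tested were -0.08 and -0.02. Summed over the 10 genes, expression was 628 and 618 CPM in wild-type, 1274 and 1340 CPM in premalignant and 1546 and 1572 CPM in malignant libraries.

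**Figure D1:**
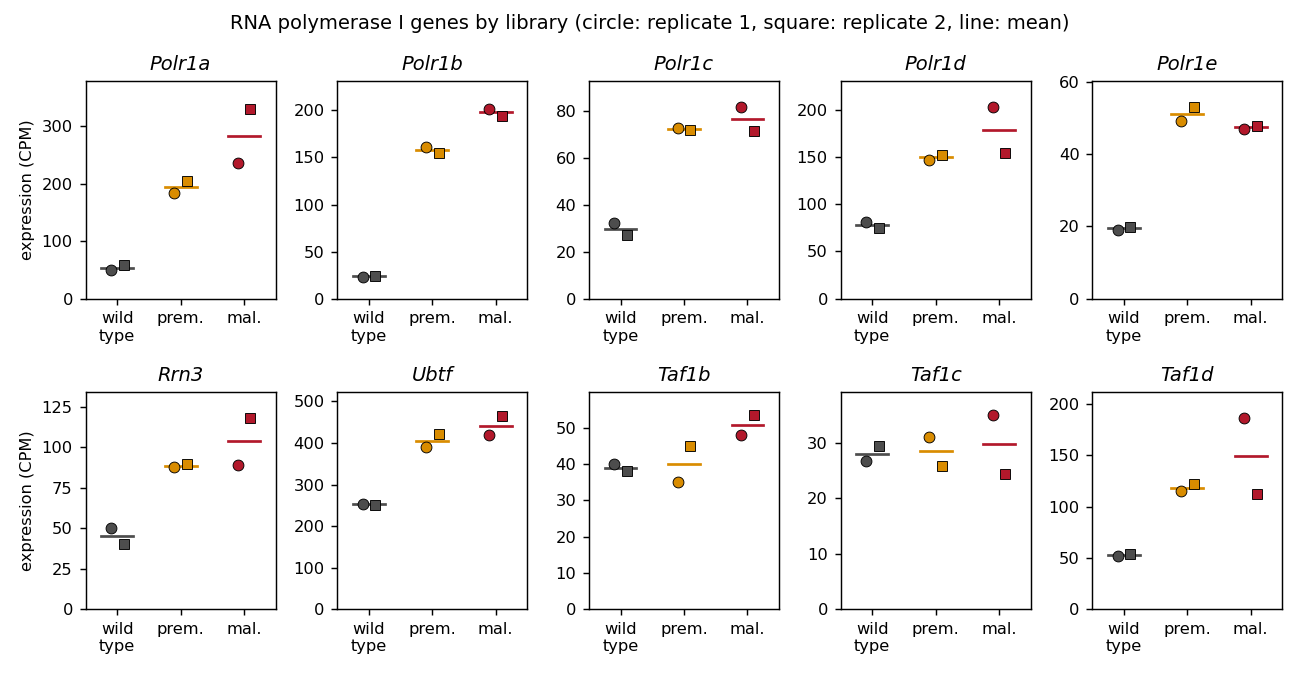
Expression of each gene in CPM (y axis, from 0) in the 6 libraries, by stage (wild type, premalignant and malignant); circles are replicate 1, squares replicate 2 and lines the mean of both. Polr1b goes from 23.5 and 23.8 CPM in wild type to 201 and 194 CPM in malignant cells, whereas the libraries of Taf1c overlap at all stages.

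MYC binds DNA with MAX at the E-box CACGTG. This hexamer was searched in the 2000 bases around the outermost annotated start of each gene on NCBIM37 (mm9). Other starts of a gene, such as those among the 6 that RefSeq lists for Ubtf, were not searched at this width. The motif is its own reverse complement, so that both strands are covered by a single search. It was present in 5 of the 10 members (Polr1b, Rrn3, Taf1b, Taf1c and Taf1d), beside 31.9% of the 13792 protein-coding genes tested. In the shorter RefSeq promoters, which run from 250 bases before to 50 bases after a start (GRCm38.p6), only Rrn3 among the members held it, beside 7.15% of 32851 promoters. All 10 members matched a RefSeq promoter. The 250 bases before the Rrn3 start are shown because they hold both of its E-boxes, at 215 and 48 bases before the start and outside the gene. The shorter windows of 30 bases show the E-boxes of Polr1b, the member with the largest change, of Taf1d, and of the genes that were not called, Taf1b and Taf1c. Sequences run 5′ to 3′ along the strand of the gene, with the E-box at the centre of each short window, and both E-boxes of Rrn3, in capitals.
Rrn3, chr16:13780542-13780791, + strand: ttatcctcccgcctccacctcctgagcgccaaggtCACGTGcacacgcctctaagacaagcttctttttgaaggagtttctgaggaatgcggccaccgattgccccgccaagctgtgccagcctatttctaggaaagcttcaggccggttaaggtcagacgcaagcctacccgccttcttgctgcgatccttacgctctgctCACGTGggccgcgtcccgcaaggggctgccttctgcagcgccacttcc
Polr1b, chr2:128926934-128926963, + strand: ctgacgcgggcgCACGTGgactccttcaac
Taf1d, chr9:15111021-15111050, + strand: gacgcagctcacCACGTGgcctccaaagct
Taf1d, chr9:15111342-15111371, + strand: atatttctacacCACGTGcacgcagtgctc
Taf1b, chr12:25184336-25184365, + strand: aactatccagcaCACGTGcccacacctcac
Taf1c, chr8:122128990-122129019, - strand: gaatgctgagagCACGTGgcagaccacgtg
Taf1c, chr8:122128978-122129007, - strand: cacgtggcagacCACGTGgctatagagact
The Polr1b match begins 215 bases after the start, in a coding exon. Those of Taf1d (375 and 696 bases), Taf1b (902 bases) and Taf1c (115 and 127 bases) are intronic. The Taf1c windows overlap, so that each also holds the other's E-box in lower case at one end. Of the 8 genes called higher, 3 held the motif in the longer window, and so did both genes that were not called. A match describes the letters only, since binding was not measured here.

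**Figure D2:**
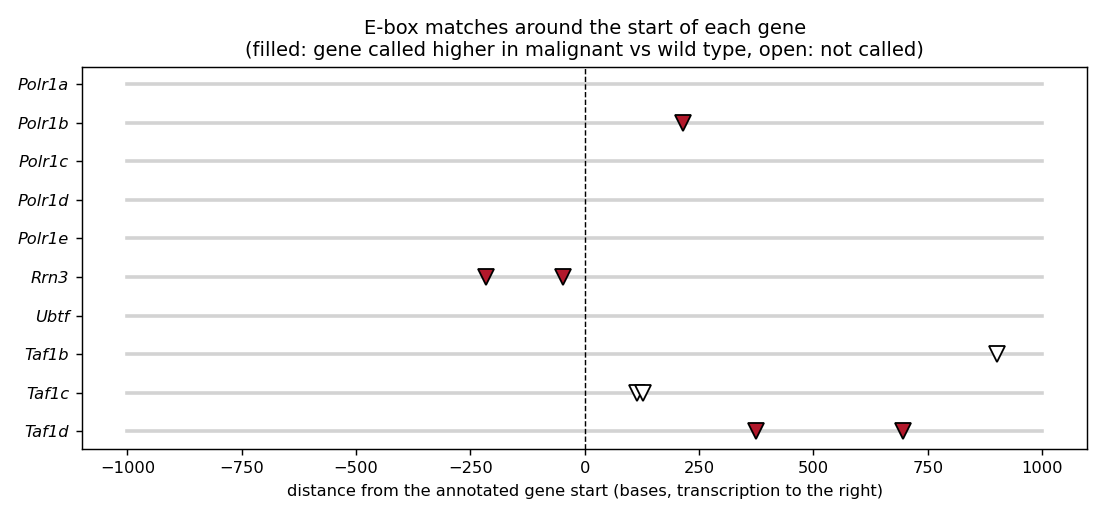
Positions of CACGTG (triangles) within 1000 bases on either side of each gene's annotated start (x axis, bases, transcription to the right); filled triangles belong to genes called higher in malignant vs. wild type and open triangles to genes not called. Only the 2 matches of Rrn3 lie before the start, and 5 genes have none.

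The catalytic core of Pol I is formed by its largest subunits, and among the 10 members these changed most. Polr1b (ENSMUSG00000027395, chromosome 2, 128926731 to 128952330, + strand) encodes the second-largest subunit. The wild-type libraries had 23.5 and 23.8 CPM, the premalignant ones 161 and 154 CPM and the malignant ones 201 and 194 CPM, so that the stages were fully separated and the libraries of a stage nearly equal. Its log2 fold change against wild type was 2.74 in premalignant (SE 0.13, edgeR adjusted p = 0.0013) and 3.06 in malignant cells (SE 0.13, edgeR adjusted p = 0.000437), a 6.67-fold and an 8.37-fold difference. Polr1a (ENSMUSG00000049553, chromosome 6, 71859047 to 71929350, + strand) encodes the largest subunit. Its wild-type libraries were at 49.2 and 59.4 CPM, its premalignant libraries at 185 and 206 CPM and its malignant libraries at 237 and 330.5 CPM. The groups again did not overlap, but the malignant libraries lay 0.48 apart on the log2 scale. The log2 fold change of Polr1a against wild type was 1.85 in premalignant (SE 0.21, edgeR adjusted p = 0.00295) and 2.39 in malignant cells (SE 0.21, edgeR adjusted p = 0.00088). A lincRNA on the other strand, Gm16601, shares 185 bases (2.81%) of the Polr1a exons and had 43 to 184 counts per library, against 2097 to 11313 for Polr1a.

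POLR1C and POLR1D form the assembly platform that Pol I has in common with RNA polymerase III, and POLR1E belongs to a heterodimer found in Pol I alone. Polr1c (ENSMUSG00000067148, chromosome 17, 46380869 to 46385003, - strand) was at 32.1 and 27.3 CPM in wild type, at 72.8 and 71.7 CPM in premalignant and at 81.6 and 71.5 CPM in malignant libraries. Polr1d (ENSMUSG00000029642, chromosome 5, 147888626 to 147922937, + strand) was at 81.5 and 74.4 CPM, at 147 and 152 CPM and at 203 and 155 CPM in the same order. Both Eμ-Myc stages were above wild type for each gene, and the malignant libraries of Polr1c overlapped the premalignant ones. Polr1e (ENSMUSG00000028318, chromosome 4, 45031455 to 45049437, + strand) was at 18.98 and 19.9 CPM in wild type, at 49.0 and 53.0 CPM in premalignant and at 47.0 and 47.8 CPM in malignant libraries, the only member with both malignant libraries below both premalignant ones. The log2 fold changes of malignant vs. wild-type cells were similar for these 3 subunits, at 1.37 for Polr1c (SE 0.15), 1.20 for Polr1d (SE 0.17) and 1.29 for Polr1e (SE 0.14), with edgeR adjusted p-values of 0.00153, 0.00301 and 0.00142. In premalignant vs. wild-type cells they were 1.28, 0.94 and 1.39. Partial copies of the Polr1d transcript lie on 3 other chromosomes, the longest over 657 bases at 82.7% identity, and reads from these stretches may be ambiguous.

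Rrn3 (ENSMUSG00000022682, chromosome 16, 13780792 to 13814933, + strand) encodes the factor, also named TIF-IA, that makes Pol I competent to initiate. It was at 50.3 and 40.3 CPM in wild type, at 87.6 and 89.5 CPM in premalignant and at 89.1 and 118 CPM in malignant libraries. Every Eμ-Myc library was above every wild-type library, while the malignant and premalignant ones overlapped. Its log2 fold change was 0.97 in premalignant (SE 0.19, edgeR adjusted p = 0.0139) and 1.19 in malignant cells against wild type (SE 0.19, edgeR adjusted p = 0.00465).

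Ubtf (ENSMUSG00000020923, chromosome 11, 102165874 to 102181056, - strand) had the most CPM of the 10 genes at every stage and the smallest fold change among the 8 that were called. Its values were 254 and 250.5 CPM in wild type, 390.3 and 420.5 CPM in premalignant and 418 and 465 CPM in malignant libraries. The Eμ-Myc libraries were thus all higher than wild type, and replicate 1 of the malignant stage lay between the premalignant libraries. The log2 fold change was 0.68 in premalignant (SE 0.13, edgeR adjusted p = 0.0134) and 0.81 in malignant cells (SE 0.13, edgeR adjusted p = 0.00511), with a 95% interval of 0.49 to 1.13 for the latter. This interval does not reach those of Polr1a (1.88 to 2.89) and Polr1b (2.75 to 3.37). The counts do not separate the isoforms of Ubtf, of which the annotation lists 12 transcripts.

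The SL1 subunits did not behave alike. Taf1d (ENSMUSG00000031939, chromosome 9, 15110658 to 15121441, + strand) was at 52.1 and 54.4 CPM in wild type, at 115 and 122 CPM in premalignant and at 186 and 113 CPM in malignant libraries, which is the widest gap between replicates of any member and stage (0.72 on the log2 scale). The Eμ-Myc libraries were all above wild type, and malignant replicate 2 was below both premalignant libraries. The log2 fold change was 1.15 in premalignant (SE 0.24, edgeR adjusted p = 0.016) and 1.49 in malignant cells against wild type (SE 0.24, edgeR adjusted p = 0.00477), and in the latter it was 1.09 without malignant replicate 1 and 1.83 without malignant replicate 2. Taf1b (ENSMUSG00000059669, chromosome 12, 25183446 to 25243436, + strand) was at 39.9 and 38.1 CPM in wild type, at 35.0 and 45.1 CPM in premalignant and at 48.0 and 53.5 CPM in malignant libraries. Both malignant libraries were thus above the other 4, by a small margin, with a log2 fold change against wild type of 0.38 (95% interval -0.04 to 0.80, edgeR adjusted p = 0.124) that was not called. Taf1c (ENSMUSG00000031832, chromosome 8, 122121875 to 122129122, - strand) was at 26.8 and 29.5 CPM in wild type, at 31.1 and 25.9 CPM in premalignant and at 35.1 and 24.3 CPM in malignant libraries, and all stages overlapped. Its log2 fold change in malignant vs. wild-type cells was 0.08 (95% interval -0.46 to 0.62, edgeR adjusted p = 0.794), an interval that still allows a moderate change in either direction. Since the estimates for Taf1c and, in premalignant cells, Taf1b were near 0, their sign turned with the scaling, for example to -0.22 for Taf1c in malignant and to -0.17 for Taf1b in premalignant cells with total counts in place of TMM.

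The reads of these SL1 genes can in part belong to other transcripts. A processed copy of Taf1d on chromosome 2 aligned over 1323 bases at 95.2% identity, and the pseudogene annotated there, Gm13487, had 6 to 21 counts per library against 1922 to 8897 for Taf1d. The gene 5830418K08Rik on the other strand shares 83 bases (4.89%) of the Taf1d exons and had 2812 to 6201 counts per library, within the range of Taf1d itself. Lrrc50, also on the other strand and at 2 to 12 counts per library, shares 480 bases (14.2%) of the Taf1c exons. The library kit does not mark strand, so that reads in such overlaps cannot be assigned. For Taf1b, a second locus on chromosome 12 matched 450 bases at 96.9% identity.

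Taf1d also hosts 8 small nucleolar RNAs (snoRNAs) in its introns, a class of RNAs that guide modification of rRNA. They were looked up after the values of Taf1d had been seen. Of the 8, 6 were called higher in premalignant and 7 in malignant vs. wild-type cells, beside 19% and 24.9% of all genes tested. Their median log2 fold change was 1.61 and 1.95. Lying within the same host gene, they are not independent of each other or of Taf1d. The most abundant by counts, SNORA32, was at 3.94 and 3.03 CPM in wild type, at 15.1 and 9.70 CPM in premalignant and at 21.9 and 9.50 CPM in malignant libraries. As for Taf1d, malignant replicate 1 was the higher one, but SNORA32 also differed between the premalignant replicates, where Taf1d hardly did. These values are uncertain, because a library of polyadenylated RNA holds mature snoRNAs only in part and unspliced Taf1d transcripts also cover them.

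**Figure D3:**
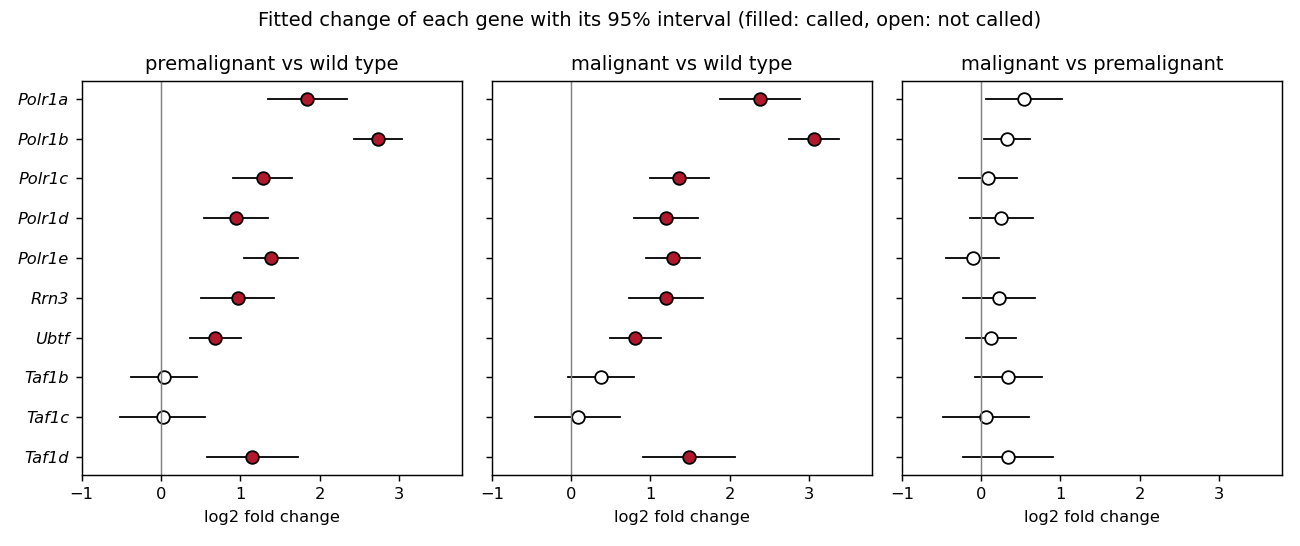
Fitted log2 fold change of each gene (x axis) with its 95% interval for both Eμ-Myc stages against wild type and for the malignant against the premalignant stage; filled points passed the FDR and fold thresholds and open points did not. In the first and second panels 8 genes are filled, from 0.68 and 0.81 (Ubtf) to 2.74 and 3.06 (Polr1b), and in the third panel none is.

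Between premalignant and malignant cells, the estimated differences were mostly small, with intervals that allow larger ones. None of the 10 genes was called in malignant vs. premalignant cells by edgeR (0 higher and 0 lower, beside 3.73% and 2.45% of all genes tested, or 6.18% in either direction), 0 were called by DESeq2, and 2 had an unadjusted edgeR p under 0.05. These were Polr1a, with a log2 fold change of 0.54 (95% interval 0.05 to 1.02, edgeR adjusted p = 0.209), and Polr1b, with 0.33 (95% interval 0.04 to 0.61, edgeR adjusted p = 0.2). The estimate was above 0 for 9 of the 10 genes, with a median of 0.24 (0.04 over all genes tested), and below 0 for Polr1e (-0.11, 95% interval -0.44 to 0.23). Both malignant libraries were above both premalignant ones in 4 genes (Polr1a, Polr1b, Polr1d and Taf1b) and below them in 1 (Polr1e), beside 25.9% and 25.2% of all genes. The intervals of the 10 genes reach from -0.48 to 1.02, and each holds the changes that the data still allow for its gene. Calls in this comparison depended on the setting. Polr1a was called without malignant replicate 1 (0.76) and when low counts were not filtered (0.53, edgeR adjusted p = 0.0659), and Taf1d without malignant replicate 2 (0.62). In each of these settings more genes of the whole table were called as well, so these calls are not particular to the members.

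Whether the step from wild type to premalignant differed from the step from premalignant to malignant was tested as a contrast of its own, the second step minus the first. In 4 members the second step was smaller, all of them subunits of the polymerase, beside 5.27% of all genes called lower, 4.36% called higher and 9.63% called in either direction in this contrast. The difference was -2.41 for Polr1b (SE 0.20, edgeR adjusted p = 0.0192), -1.50 for Polr1e (SE 0.23, edgeR adjusted p = 0.0355), -1.20 for Polr1c (SE 0.26, edgeR adjusted p = 0.0626) and -1.31 for Polr1a (SE 0.34, edgeR adjusted p = 0.0901), on the log2 scale. For the other 6 genes the difference was not called, including Ubtf (-0.56, edgeR adjusted p = 0.207) and Taf1d (-0.82, edgeR adjusted p = 0.278). The count fell to 0 when wild-type replicate 2, premalignant replicate 1 or premalignant replicate 2 was left out, settings in which 0 genes of the whole table were called in this contrast, and it was 7 without malignant replicate 2. Both steps share the premalignant libraries, so that an error in these moves the steps in opposite directions.

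The libraries of a stage lay closest together in wild-type and premalignant cells. The median absolute gap over the 10 genes was 0.10 (wild type), 0.09 (premalignant) and 0.29 (malignant) on the log2 scale, where the medians over all genes tested were 0.21, 0.13 and 0.32. The members with the widest gap were Rrn3 in wild type (0.32), Taf1b in premalignant (0.36) and Taf1d in malignant cells (0.72). In the malignant stage 5 genes were higher in replicate 2 and 5 in replicate 1, so that the gap was no common shift of the list. Taken within replicate 1 and within replicate 2, the median log2 difference of the 10 genes was 1.31 and 1.16 in malignant and 1.00 and 1.16 in premalignant vs. wild-type libraries. The labels state no pairing by this number, so libraries were matched here by number only.

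Per kilobase of exon, the order of the genes changed between the stages. In wild-type cells Polr1d (39.3 ± 2.54 RPKM, SD, n = 2) and Ubtf (38.5 ± 0.371 RPKM) were highest and could not be separated, followed by Taf1d (31.4 ± 0.949 RPKM), Taf1b (19.3 ± 0.652 RPKM), Polr1c and Rrn3 at about the same level (13.0 and 12.6 RPKM), Taf1c and Polr1a likewise (8.30 and 8.25 RPKM), and Polr1e (4.99 ± 0.168 RPKM). Polr1b was the lowest in wild type, at 4.07 ± 0.044 RPKM. In premalignant cells Polr1b stood sixth at 27.2 ± 0.834 RPKM, just behind Polr1c and Polr1a (31.7 and 29.7 RPKM) and above Rrn3, Taf1b and Polr1e. In malignant cells the highest 3 were Polr1d, Taf1d and Ubtf (90.1, 88.0 and 67.4 RPKM), of which each overlapped the next. Polr1a (43.1 ± 10.1 RPKM) came next, Polr1b, Polr1c, Rrn3 and Taf1b followed from 34.1 down to 25.1 RPKM with overlap between neighbours, and Polr1e was at 12.2 RPKM. Taf1c was the lowest in both Eμ-Myc stages (8.42 ± 1.08 and 8.78 ± 2.26 RPKM). Exon lengths of all annotated transcripts were joined, so that the level of a gene with many isoforms, such as Ubtf, may be understated.

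Ratios between genes of the same library do not depend on how libraries were scaled. The ratio of Polr1a to Polr2a, the largest subunit of RNA polymerase II (Pol II), was 0.0955 and 0.119 in wild type, 0.314 and 0.361 in premalignant and 0.391 and 0.617 in malignant libraries, by RPKM. For Polr1b and its Pol II counterpart Polr2b it was 0.128 and 0.164, then 0.607 and 0.549, and then 0.711 and 0.77. Both ratios were thus higher in every Eμ-Myc library than in both wild-type libraries, and higher in both malignant than in both premalignant libraries. The corresponding ratios of RNA polymerase III (Pol III) took another course, with Polr3b to Polr2b at 0.748 and 0.948 in wild type, 0.505 and 0.519 in premalignant and 0.665 and 0.71 in malignant libraries. Polr3b itself did not fall. In premalignant vs. wild-type cells its log2 fold change was 0.03 (not called), whereas Polr2b was called higher (0.73, edgeR adjusted p = 0.0187). Polr3a to Polr2a stayed within 0.126 to 0.154 in the wild-type and premalignant libraries and was 0.209 and 0.194 in the malignant ones. Among the members, the ratio of Polr1b to Polr1a was 0.54 and 0.454 in wild type, 0.987 and 0.849 in premalignant and 0.963 and 0.666 in malignant libraries. The ratio of Ubtf to Polr1a was 5.18 and 4.24 in wild type, 2.12 and 2.05 in premalignant and 1.77 and 1.41 in malignant libraries, without overlap. With 2 libraries against 2, an exact permutation test of such a ratio cannot give a two-sided p below 0.333, so none was used.

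**Figure D4:**
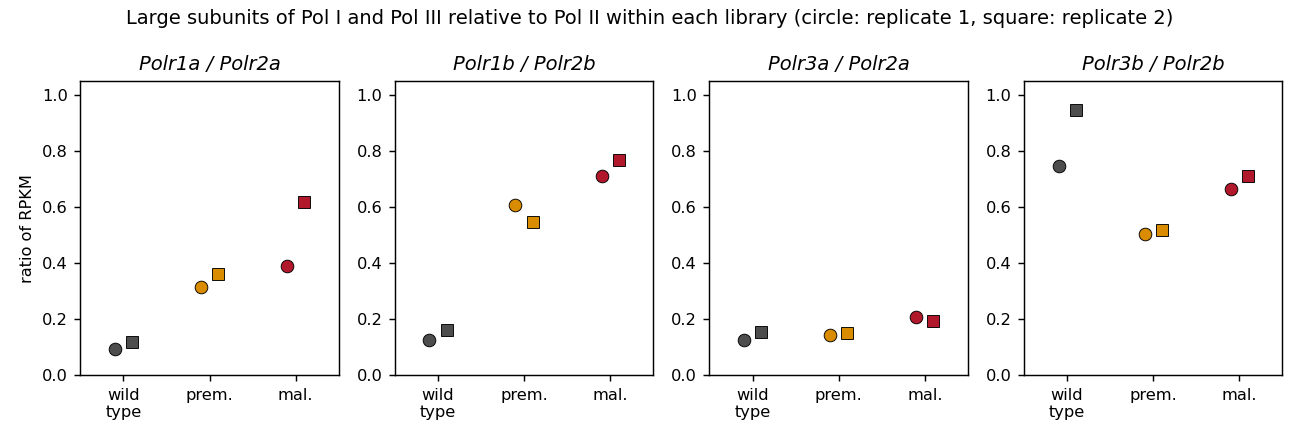
Ratio of RPKM within each library (y axis, from 0) for the largest and second-largest subunits of Pol I and of Pol III, each divided by the Pol II counterpart; circles are replicate 1 and squares replicate 2. The Pol I ratios are lowest in both wild-type libraries (0.0955 to 0.164), whereas Polr3b to Polr2b is highest there (0.748 and 0.948). Polr2b was called higher in both Eμ-Myc stages than in wild type, and Polr3b was not called.

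Of the other genes of the rDNA pathway, listed by role, 23 were tested in 6 groups, and 14 were called higher and 3 lower in malignant vs. wild-type cells (24.9% and 24.3% of all genes tested). In premalignant vs. wild-type cells 13 were called higher and 1 lower (19% and 20.3% of all genes), and in malignant vs. premalignant cells 1 was called higher, a share near the 3.73% of all genes. Of 3 further subunits found in Pol I alone, Twistnb and Cd3eap were called higher. Cd3eap, the partner of POLR1E in its heterodimer, was at 5.14 and 4.30 CPM in wild type and at 27.2 and 33.6 CPM in malignant libraries (log2 fold change 2.68, SE 0.21, edgeR adjusted p = 0.000732). Znrd1, a small subunit, was called in no comparison, with 31.4 and 26.6 CPM in wild type and 14.4 and 37.2 CPM in malignant libraries, on either side of the wild-type level. All 5 subunits that Pol I shares with Pol II and Pol III were called higher in both Eμ-Myc stages, from 0.69 for Polr2k to 2.28 for Polr2f in malignant vs. wild-type cells.

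Promoter factors other than the members were not called. Tbp, the TATA-binding protein of SL1, had a log2 fold change of 0.11 (SE 0.15, edgeR adjusted p = 0.571) and Taf12 of 0.12 (SE 0.17, edgeR adjusted p = 0.598) in malignant vs. wild-type cells, and Ubtfl1, a relative of Ubtf, had only 1 to 18 counts per library. Taf1a, the remaining SL1 subunit, was not analysed here. Of the termination and release factors, Ttf1, which stops Pol I at the end of the repeat, was called lower in malignant vs. wild-type cells (-0.52, SE 0.14, edgeR adjusted p = 0.0273), with 61.3 and 68.0 CPM in wild type against 46.6 and 43.7 CPM. Ptrf, which helps to release the transcript, was called higher there (3.76) and in malignant vs. premalignant cells (4.61), but from 2 to 10 counts per library to 70 and 74, the lowest level of any gene called in these groups.

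Among 5 coactivators and processing partners of rDNA transcription, 4 were called higher and 1 lower in malignant vs. wild-type cells, beside 24.9% and 24.3% of all genes tested. Mybbp1a, a nucleolar MYB-binding protein, went from 131 and 147 CPM in wild type to 800 and 857 CPM in premalignant and 1023 and 1050.0 CPM in malignant libraries (log2 fold change 2.90, SE 0.15, edgeR adjusted p = 0.000526). Nolc1, Ncl and Tcof1 had log2 fold changes of 2.63, 2.48 and 1.36 in the same comparison. Sirt7, a deacetylase that activates Pol I, was called lower in malignant cells (-0.76, SE 0.18, edgeR adjusted p = 0.0175). Of 5 factors that silence rDNA repeats, Baz2a, the scaffold of the nucleolar remodelling complex, was lower in both Eμ-Myc stages, with 360 and 469 CPM in wild type, 220 and 203 CPM in premalignant and 221 and 224 CPM in malignant libraries (-0.90 in malignant vs. wild-type cells, SE 0.16, edgeR adjusted p = 0.00719). Suv39h1 and Rrp8 were called higher (0.87 and 0.77), and Smarca5, the ATPase partner of Baz2a, and Sirt1 were called in no comparison (0.03 and -0.09 in malignant vs. wild-type cells).

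**Figure D5:**
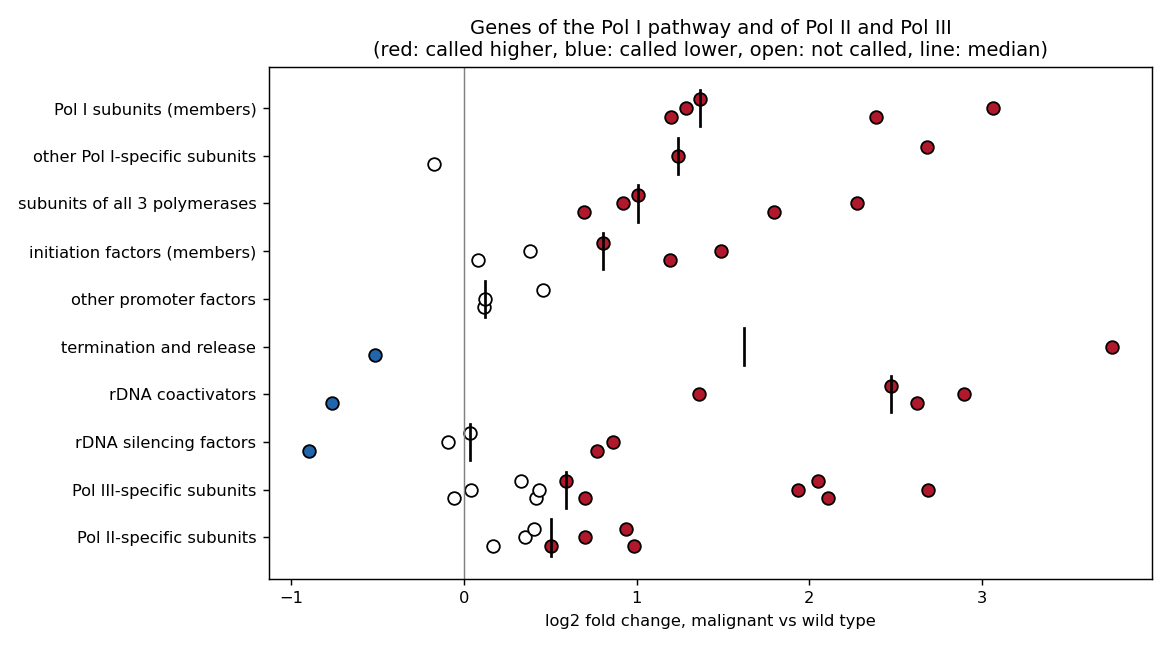
Log2 fold change in malignant vs. wild-type cells (x axis) of each gene, grouped by role; red points were called higher, blue points lower, open points not called, and the black line is the median of the group. The 5 subunits among the members span 1.20 to 3.06 and the Pol II-specific subunits 0.17 to 0.99.

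Subunits found in Pol II alone were called higher in 4 of 7 genes in malignant vs. wild-type cells, beside 24.9% of all genes tested. Their median log2 fold change was 0.51 and their highest value 0.99 (Polr2d), below the lowest of the 5 Pol I subunits among the members (1.20 for Polr1d). This separation does not hold for every Pol I subunit, since Znrd1 was at -0.17 (not called), below all 7. Of 11 subunits found in Pol III alone, 6 were called higher, beside the same 24.9%, with a median of 0.59 and values from -0.06 to 2.69 (Polr3g). The difference between the lists was not tested.

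Genes whose course over the 6 libraries came closest to that of the members were ranked by the root mean square distance of log2 CPM, each profile centred on wild type, among 8869 genes at a mean of 10 CPM or more. Nearest to the median profile of the 10 members were Eif3g, Eif2b1, Fam60a, Mrps30 and Rcn1, at distances of 0.04 to 0.05 on the log2 scale. Eif3g, a subunit of a translation initiation factor, was at 87.2 and 83.8 CPM in wild type, at 177 and 186 CPM in premalignant and at 208 and 186 CPM in malignant libraries. Nearest to Ubtf were 2310003L22Rik, Glmn, 2210016L21Rik, Pphln1 and Usp46, at 0.04 to 0.06.

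Markers of other bone marrow cells moved with the stages as well. The summed expression of 6 neutrophil and monocyte markers was 771 and 1695 CPM in wild type, 231 and 247 CPM in premalignant and 55.0 and 111 CPM in malignant libraries. All 6 were called lower in both Eμ-Myc stages vs. wild type. Over all genes tested, 20.3% were called lower in premalignant and 24.3% in malignant vs. wild-type cells. Of 5 erythroid markers, 4 were called lower in both, with sums of 293 to 1080 CPM in wild type and 52.3 to 138 CPM in the Eμ-Myc libraries. The sums of 3 plasmacytoid dendritic cell markers were 244 to 374 CPM and 45.2 to 104 CPM, with 2 called lower in premalignant and 3 in malignant cells. Those of 4 T-cell markers were 61.3 and 43.6 CPM in wild type, 12.1 and 10.0 CPM in premalignant and 12.8 and 65.1 CPM in malignant libraries. In premalignant and malignant cells 4 and 3 were called lower, with Cd3e at 0 in 1 premalignant library. The exception was Lck, at 11.9 CPM in malignant replicate 1 and 64.1 CPM in replicate 2, against 53.3 and 40.0 CPM in wild type. In bulk samples fewer cells of a type and less RNA per cell cannot be told apart, and the part that such cells have in the differences of the Pol I genes was not tested.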

How the data were processed

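Polyadenylated RNA of 6 libraries was analysed. The authors aligned 50-base single-end reads with TopHat to mm9 (build per the labels; CASAVA 1.8.2, Bowtie, HTSeq and DESeq are also named in the submitters' processing notes), obtained raw counts per Ensembl gene with HTSeq, and deposited these unnormalized. HTSeq options are not given in the sources used here. Deposited DEseq tables (stage means, fold changes and p-values) were not used. The deposited counts of all genes entered 1 edgeR quasi-likelihood fit (edgeR 4.0.16, R 4.3.3; TMM, filterByExpr, stage as the only term, 3 residual degrees of freedom), with Benjamini-Hochberg adjustment over the 16683 genes tested. Standard errors were taken from the fold change and its F statistic. DESeq2 1.42.0, other scalings, filters, thresholds, a replicate block, fits of the compared stages alone and leaving out each library were alternatives. The fits were also run on simulated counts. In these a small share of genes was changed, in the malignant stage only, unlike the data here, so that no result rests on them.

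GENCODE vM1 (NCBIM37) gave symbols for 37205 identifiers and none for 786. All 10 genes are named in each comparison. Of the other lists, the genes called with the largest change in malignant vs. wild-type cells and those of the rDNA lists called in no comparison are named, plus Myc and 5 genes of like course per profile. The genes named beyond this rule (the snoRNAs, copies and overlapping genes, and further called genes of the lists) and the sequences of Rrn3 and Taf1d were chosen after values were seen. The members and lists were chosen with earlier results of these data known. A further marker gene is not reported here.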

Additional observations from a re-analysis of the deposited data

How the results depend on the processing

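In malignant vs. wild-type cells 8 members were called higher, or 7 with a minimum log2 fold change of 1 (Ubtf lost), and 0 lower under the alternatives that were run. In premalignant vs. wild-type cells the count of 8 was 5 with a minimum log2 fold change of 1 and 7 with total counts in place of TMM (Ubtf at 0.47), and it ranged from 5 to 8 when a library was left out. The 5 came without premalignant replicate 2, where Rrn3, Ubtf and Taf1d had edgeR adjusted p-values of 0.108, 0.147 and 0.108. Without premalignant replicate 1, Ubtf alone was lost (edgeR adjusted p = 0.102). In malignant vs. premalignant cells 1 member (Polr1a) was called with no filter. Calls also depended on the malignant library left out (Polr1a without replicate 1, Taf1d without replicate 2), as did the calls over all genes. For the difference of the steps the count of 4 was 2 at an FDR of 0.05. It fell or rose with the library left out, as did the calls over all genes.

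Over all genes, 6563 were called in premalignant vs. wild-type cells, 4282 with a minimum log2 fold change of 1 and from 2094 (without premalignant replicate 2) to 8455 when a library was left out. In malignant vs. premalignant cells 1031 were called, 2810 with no filter, 258 in a fit of these stages alone, 2186 with DESeq2, 407 at an FDR of 0.05 and from 0 (without either premalignant library) to 3805 (without malignant replicate 2) when a library was left out. The cause of these shifts was not tested. The balance of calls depended on the scaling. With total counts 35.5% of those in malignant vs. wild-type cells were higher (50.6% with TMM) and 33.6% of those in premalignant vs. wild-type cells (48.3%), with the median of all genes moved by -0.30 and -0.21. In malignant vs. premalignant cells 60.4% were higher, 49.7% with upper-quartile scaling and 50.6% with total counts.

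Estimates near 0 changed sign. In malignant vs. wild-type cells Taf1c was at -0.0841 with upper-quartile scaling, -0.22 with total counts, -0.0098 with at least 10 counts in every library and from -0.20 (without malignant replicate 1) to 0.348 when a library was left out. In premalignant vs. wild-type cells Taf1b was at -0.0482, -0.17 and -0.0272 under the same first 3 settings and from -0.15 (without premalignant replicate 2) to 0.216 with a library left out, and Taf1c at -0.0646, -0.19 and -0.0419, and from -0.11 (without premalignant replicate 1; -0.0417 without wild-type replicate 1) to 0.154. In malignant vs. premalignant cells Taf1c was at -0.0195 with upper-quartile scaling and -0.0283 with total counts, and from -0.23 (without malignant replicate 1; -0.0623 without premalignant replicate 2) to 0.265. Polr1c was there at -0.0024 with total counts and from -0.0148 to 0.141, Taf1d from -0.0723 to 0.616, and Rrn3 from -0.0253 (without malignant replicate 2) to 0.416, the lowest values of Polr1c and Taf1d being those without malignant replicate 1. No estimate that was called in the fit reported here changed sign.

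The labels give the stages the same replicate numbers but state no pairing, and depth followed the number. Deviations of same-numbered libraries correlated at 0.509 (wild type and premalignant), 0.186 (wild type and malignant) and 0.257 (premalignant and malignant) across genes. With the replicate number as a block the members called stayed at 8, 8, 0 and 4, and the genes called were 8224, 6575 and 940. Where 1 library was left out, the lone library of its stage was assumed to vary like the others.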
